A study of Mus musculus with 6 samples.

Results

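Endosomal detection of nucleic acids through the receptors TLR7 and TLR9 was followed across 10 genes of the route: the receptor genes Tlr7 and Tlr9, the chaperone gene Unc93b1, the adaptor gene Myd88, the kinase genes Irak1 and Irak4, the ubiquitin ligase genes Traf6 and Traf3, the lysosomal transporter gene Slc15a4 and the adaptor gene Pik3ap1. All array probes annotated to these genes were taken, by their platform symbol or by the current symbol of their Entrez identifier. There were 19 such probes among 45281, and they covered 8 of the 10 genes, while no probe was matched to Irak4 or Traf3, which were not analysed here. Of the 19 probes, 16 were above background often enough to be tested, which left each of the 8 genes with at least 1 tested probe.

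The arrays measured total RNA of 2 cell populations sorted from bone marrow of female C57BL/6 mice aged 7 weeks: CCR9+ plasmacytoid dendritic cells (pDCs), and CCR9- pDC-like cells labelled as a dendritic cell precursor. Each population had 3 single-colour Illumina BeadChip arrays from independent isolations. The labels used here name no stimulating agent for either population, and all 6 samples came from one strain with no stated genetic change. The labels do not say whether animals were pooled for an isolation, nor which markers other than CCR9 set the gates. Values are normalized log2 signals, and every fold change is CCR9+ pDC minus CCR9- precursor, so a positive value is higher in CCR9+ pDCs. Calls rest on limma's adjusted p below 0.05 over all 16857 probes tested, and a gene is read from its brightest tested probe, called here its main probe.

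Plasmacytoid dendritic cells are the dendritic cell type known for releasing large amounts of type I interferon when viral nucleic acid reaches their endosomes. TLR7 binds single-stranded RNA and TLR9 binds DNA rich in unmethylated CpG. Both receptors are folded in the endoplasmic reticulum, escorted to endosomes by UNC93B1 and trimmed there by proteases. They signal through MyD88, which assembles IRAK4 and IRAK1 and passes the signal to TRAF6 and TRAF3. One branch ends in NF-kappaB and MAP kinases and another in IRF7 and interferon transcription. The transporter encoded by Slc15a4 and the adaptor BCAP, encoded by Pik3ap1, act on this route from the lysosomal membrane and through phosphoinositide 3-kinase.

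Promoter windows of 300 bases, 250 before and 50 after the gene start, were held in the RefSeq table of build GRCm38.p6 for 8 of the 10 genes. No window was held there for Tlr7 or Unc93b1. The windows of Tlr9, the receptor gene whose signal lay nearest to background, of Myd88, the adaptor shared by both receptors, and of Pik3ap1, a gene called higher in CCR9+ pDCs, are shown on the strand of the gene. They stand at chr9:106222348-106222647 (plus strand), chr9:119339969-119340268 (minus strand) and chr19:41385053-41385352 (minus strand). Capitals mark matches, on either strand, to 4 motifs: the interferon-stimulated response core (GAAA, a gap of 2 bases, GAAA), the composite of ETS and IRF sites (GGAA, a gap of 2 bases, GAAA), the PU.1 sequence GAGGAAGT and the E-box CAGGTG. No matches to different motifs overlap in these windows.
Tlr9: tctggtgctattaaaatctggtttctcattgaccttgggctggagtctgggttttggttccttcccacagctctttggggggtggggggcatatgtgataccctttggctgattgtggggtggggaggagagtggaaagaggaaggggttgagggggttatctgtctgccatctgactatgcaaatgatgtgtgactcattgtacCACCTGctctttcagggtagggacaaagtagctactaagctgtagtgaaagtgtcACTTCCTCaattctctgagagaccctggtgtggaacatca
Myd88: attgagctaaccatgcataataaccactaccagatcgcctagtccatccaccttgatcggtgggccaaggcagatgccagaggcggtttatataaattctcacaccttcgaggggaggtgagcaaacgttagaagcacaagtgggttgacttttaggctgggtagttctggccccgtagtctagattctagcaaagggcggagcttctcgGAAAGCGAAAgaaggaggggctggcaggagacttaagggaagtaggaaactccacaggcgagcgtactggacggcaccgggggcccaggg
Pik3ap1: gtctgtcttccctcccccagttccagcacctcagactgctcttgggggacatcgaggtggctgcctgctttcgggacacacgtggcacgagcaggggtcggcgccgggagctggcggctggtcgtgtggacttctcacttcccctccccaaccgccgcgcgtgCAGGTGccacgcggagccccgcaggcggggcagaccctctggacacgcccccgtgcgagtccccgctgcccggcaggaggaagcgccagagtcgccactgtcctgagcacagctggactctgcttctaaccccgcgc

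The Tlr9 window held 1 match to the PU.1 sequence and 1 E-box, the Myd88 window 1 match to the interferon-stimulated response core, and the Pik3ap1 window 1 E-box. Of the windows not shown, that of Traf3 held 1 match to the PU.1 sequence. Those of Irak1, Irak4, Traf6 and Slc15a4 held no match to any of these motifs. Over 27025 promoter windows of the same length, the response core was found in 3.49%, the composite in 2.79%, the PU.1 sequence in 3.28% and the E-box in 20.0%. These are matches of letters and were not tested against binding.

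Of the 8 member genes tested, 3 were called higher in CCR9+ pDCs (Tlr7, Pik3ap1 and Unc93b1), none was called lower, and 5 were not called (Tlr9, Myd88, Irak1, Traf6 and Slc15a4). Across all 9561 genes tested, 32.7% were called, 16.2% as higher and 16.5% as lower. Arrays of the 2 populations were fully separated for 5 of the 8 members, against 50.9% of all genes. By probe, 4 of the 16 tested were called higher and none lower, against 13.7% called higher and 15.6% lower among all probes. The median log2 fold change was 0.34 over the 8 members and -0.02 over all genes. The member with the largest difference was Tlr7, at 3.74-fold, and those of the other 7 genes lay between 0.982- and 1.47-fold. Without CCR9+ pDC replicate 3, the array that correlated least with its own group, 2 of the 8 members were called higher.

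**Figure D1:**
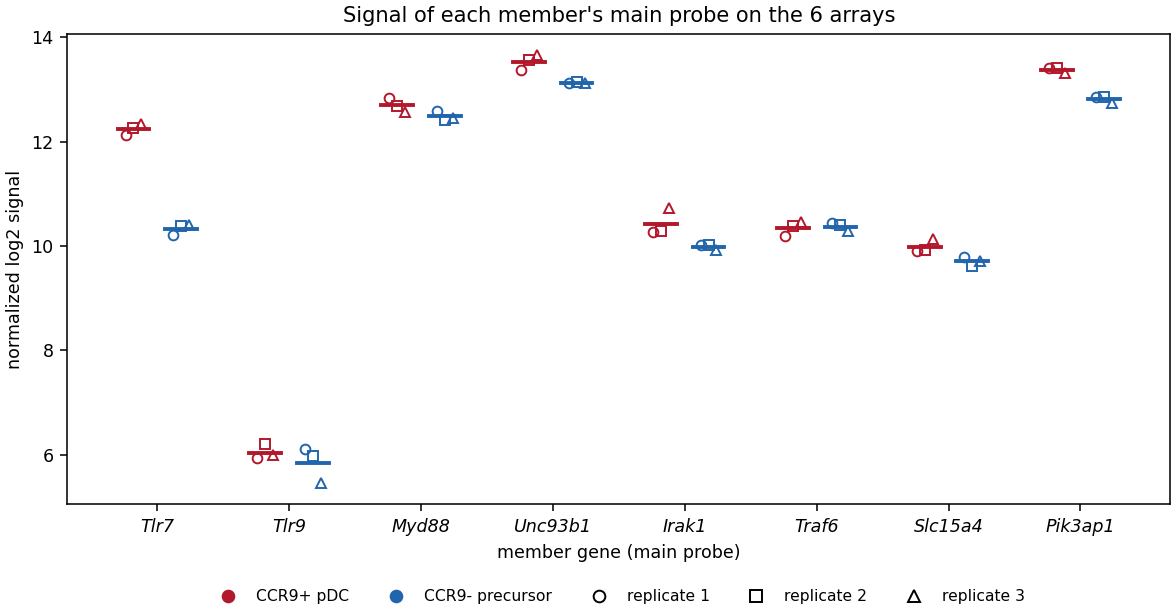
Normalized log2 signal of the main probe of each of the 8 members on every array, with CCR9+ pDC arrays in red left of CCR9- precursor arrays in blue. Symbols mark the replicate number and bars the group means. Tlr7 shows the widest gap (12.24 against 10.33), Tlr9 lies near 6 in both groups, and levels of different probes cannot be compared with each other.

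Tlr7, the RNA receptor gene, had signals of 12.12, 12.26 and 12.33 on the CCR9+ pDC arrays, against 10.21, 10.39 and 10.40 on the CCR9- precursor arrays. Every CCR9+ pDC array was above every precursor array, and the gap between the groups was many times the spread within them. Its single probe averaged 12.24 ± 0.10 over the CCR9+ pDC arrays and 10.33 ± 0.11 over the precursor arrays (log2 signal, SD, n = 3 each), a log2 fold change of 1.90 with a 95% interval of 1.64 to 2.17 (limma adjusted p = 6.22e-05). Before normalization the intensities were 4275.5, 5001.6 and 4567.0 in CCR9+ pDCs, against 1513.6, 1540.5 and 1621.7 in precursors. The absolute change exceeded that of 95.6% of all genes tested. Leaving out any 1 array gave log2 fold changes between 1.85 and 1.96, and the gene was called each time.

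Tlr9, the DNA receptor gene, had 2 probes and neither was bright. The brighter probe had signals of 5.93, 6.20 and 6.00 on the CCR9+ pDC arrays and 6.11, 5.98 and 5.46 on the precursor arrays, so the groups overlapped. It was above background on all 3 CCR9+ pDC arrays and on 2 of the 3 precursor arrays. Its intensities before normalization, 168.9 to 196.7 in CCR9+ pDCs and 179.0 to 197.1 in precursors, stood little above the array medians of 135.9 to 163.6. The log2 fold change of 0.19 had a 95% interval of -0.26 to 0.64 (limma adjusted p = 0.507), so a difference of up to 1.56-fold in the direction of CCR9+ pDCs lies within it. Without precursor replicate 3 the value was -0.01 (adjusted p = 0.978). The other Tlr9 probe was not above background on any array and was not tested. With signals this near background, the arrays could not settle whether Tlr9 differed between the populations. The interval describes the signal of this 1 probe and does not bound the difference in Tlr9 RNA.

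The genes whose main probes followed Tlr7 most closely over the 6 arrays were Srpk3 (Pearson r = 0.9998), Hs3st1 (0.9995) and Gm11346 (0.9993), which differed by 2.12, 1.02 and 1.81 on the log2 scale. For Tlr9 they were Dnaja3 (0.9741), Slc37a1 (0.9726) and Hsd17b1 (0.9709), at 0.05, 0.07 and 0.45. The 6 arrays form 2 groups of 3 and share their normalization. A gene with a wide gap in the same direction and little spread within groups therefore correlates highly with Tlr7.

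Unc93b1, whose product carries both receptors to the endosome, gave main-probe signals of 13.38, 13.56 and 13.66 on CCR9+ pDC arrays and 13.12, 13.14 and 13.13 on precursor arrays. The groups did not overlap, but the difference was small, at 1.32-fold (log2 0.40, 95% interval 0.14 to 0.66, limma adjusted p = 0.0344). Among the settings that ended the call were fits without CCR9+ pDC replicate 2 (adjusted p = 0.0969) or 3 (0.0521), without precursor replicate 1 (0.109), 2 (0.0991) or 3 (0.0951), without both arrays numbered 3 (0.104), with no filter on dim probes (0.0534) and with the mean of the gene's probes (0.178). The second Unc93b1 probe had a log2 fold change of 0.06 (adjusted p = 0.871), with signals from 8.11 to 8.84 in CCR9+ pDCs and from 8.33 to 8.70 in precursors.

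Myd88, the adaptor that both receptors need, was bright in both populations. Its main probe read 12.84, 12.69 and 12.56 in CCR9+ pDCs and 12.58, 12.41 and 12.46 in precursors, which overlapped narrowly (log2 0.21, 95% interval -0.06 to 0.49, limma adjusted p = 0.219). The second probe did not overlap, at 8.59, 8.41 and 8.57 in CCR9+ pDCs against 8.29, 8.21 and 8.27 in precursors, and was not called either (log2 0.27, adjusted p = 0.0960). With the authors' processed values the main probe was called at 0.38 (adjusted p = 0.0041).

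Irak1, the kinase that leaves the receptor complex to activate TRAF6, was read by 3 probes. The main probe read 10.27, 10.28 and 10.72 in CCR9+ pDCs and 10.01, 10.02 and 9.92 in precursors. These groups did not overlap, and the highest value was that of CCR9+ pDC replicate 3. The log2 fold change of 0.44 missed the threshold (95% interval 0.09 to 0.79, limma adjusted p = 0.0680). It passed with no background correction (0.0295), an offset of 50 (0.0467), the authors' processed values (0.0245), a stricter filter (0.0497), an intensity trend (0.0192) and array weights (0.0388). The other Irak1 probes differed by 0.02 and -0.07, with overlapping groups.

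Traf6, the ubiquitin ligase at which the kinase signal divides, had 5 probes, of which 3 were tested and none was called. Its main probe read 10.19, 10.39 and 10.46 in CCR9+ pDCs and 10.44, 10.40 and 10.28 in precursors. The groups overlapped fully (log2 -0.03, 95% interval -0.30 to 0.25, limma adjusted p = 0.891). The other tested probes differed by 0.16 and -0.57 (adjusted p = 0.684 and 0.173), so the Traf6 probes did not share a direction. The 2 untested probes were above background on at most 1 array.

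Slc15a4, which encodes a proton-coupled transporter of histidine and peptides in the endolysosomal membrane, gave main-probe readings of 9.91, 9.93 and 10.14 in CCR9+ pDCs and 9.79, 9.61 and 9.72 in precursors. Its groups did not overlap, yet the difference was not called (log2 0.28, 95% interval 0.01 to 0.55, limma adjusted p = 0.111). The second probe gave the same size, 0.28, with overlapping groups (adjusted p = 0.282). The main probe was called with the authors' processed values (adjusted p = 0.0326) and with an intensity trend (0.0498).

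Pik3ap1, the BCAP gene, was called by both of its probes. Its main probe had signals of 13.40, 13.40 and 13.31 in CCR9+ pDCs, against 12.85, 12.85 and 12.74 in precursors (1.47-fold, log2 0.56, 95% interval 0.33 to 0.79, limma adjusted p = 0.00567). The second probe had 8.36, 8.70 and 8.23 in CCR9+ pDCs, against 8.04, 7.82 and 7.66 in precursors (1.51-fold, log2 0.59, adjusted p = 0.0369). Both probes were higher on every CCR9+ pDC array than on any precursor array. Leaving out any 1 array kept the main probe called, at log2 fold changes of 0.52 to 0.60.

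**Figure D2:**
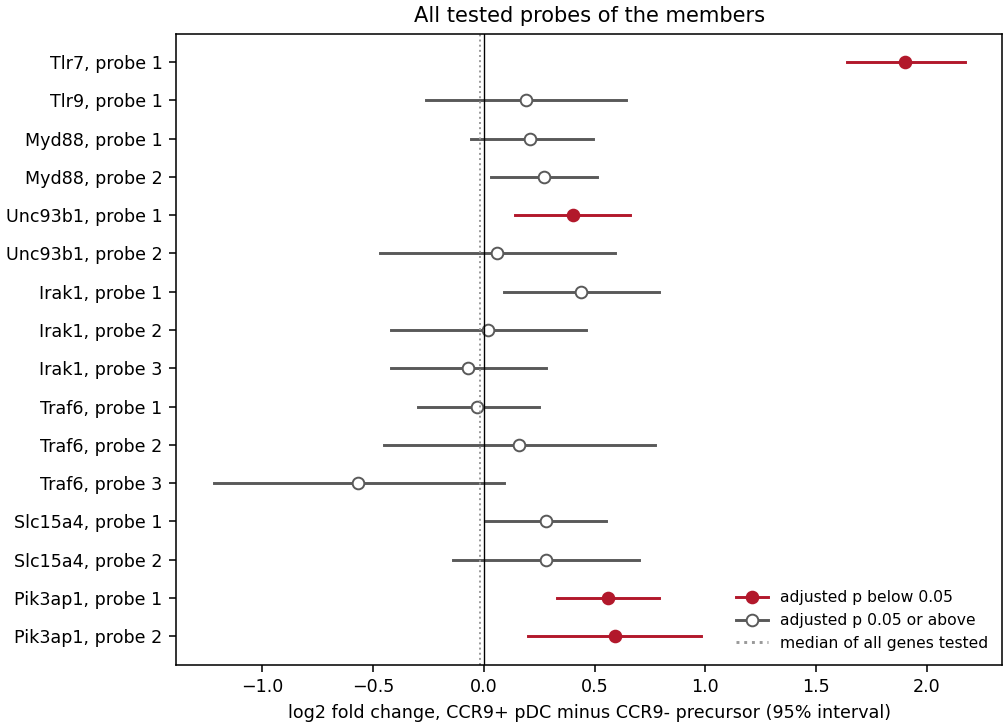
Log2 fold change (CCR9+ pDC minus CCR9- precursor) with its 95% interval for the 16 tested probes of the 8 members, brightest probe first within a gene. Filled red points passed the adjusted p of 0.05 and open grey points did not. The Tlr7 probe stands at 1.90, both Pik3ap1 probes near 0.6, and 1 of 2 Unc93b1 probes was called.

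Over all probes tested, 4941 of 16857 were called (29.3%), with 2307 higher in CCR9+ pDCs and 2634 lower. Under scaling each array by its median, in place of quantile normalization, the median of all genes moved to -0.19 with 1382 probes called higher and 3125 lower, so that 30.7% of calls were higher in CCR9+ pDCs in place of 46.7%. Relative to that median the differences of Tlr7, Pik3ap1 and Unc93b1 were 1.86, 0.59 and 0.44, but only Tlr7 was called (adjusted p = 9.94e-05), with Pik3ap1 at 0.117 and Unc93b1 at 0.232.

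Marker signals were read beside these results, since bulk RNA cannot tell fewer cells of a type from less RNA per cell. The pDC markers Siglech, Tcf4 and Bst2 were above background on all 6 arrays, while Ccr9 itself was on none. The summed signal of the 11 tested pDC markers was 98509 to 110467 in CCR9+ pDCs and 82654 to 85490 in precursors, with 5 called higher and 1 lower. All 12 tested monocyte and macrophage markers were called higher in CCR9+ pDCs, with sums of 32542 to 41168 there and 2742 to 3337 in precursors. In precursors C1qa and Fcgr1 were not above background on any array, and Cd5l was not on any of the 6. All 11 granulocyte markers were higher too (102055 to 116370 in CCR9+ pDCs and 51311 to 60130 in precursors). Among 8 B cell markers 2 were higher and 2 lower, and among 8 conventional dendritic cell markers 4 were higher and 2 lower. Of the T and NK cell markers 2 of 3 were higher, and of the erythroid markers 2 of 4. Over all genes 16.2% were called higher and 16.5% lower. Macrophages and B cells also use TLR7, TLR9 and MyD88, and the part of such cells in the signals of the members was not tested.

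**Figure D3:**
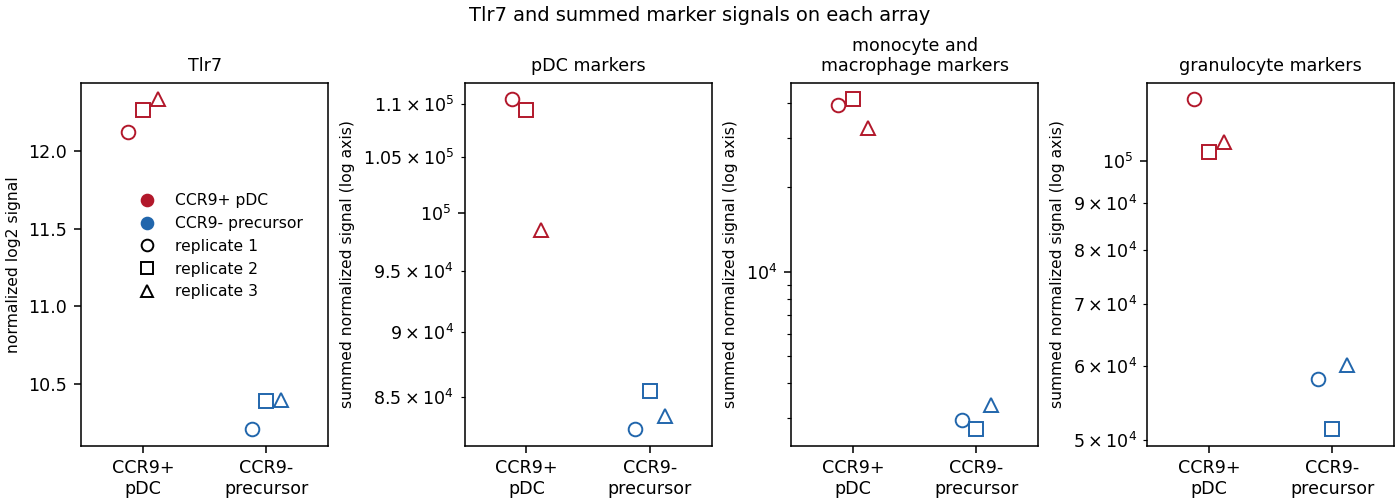
Tlr7 (normalized log2 signal) and the summed normalized signal of the pDC, monocyte and macrophage, and granulocyte markers (log axes of different range) on each array, CCR9+ pDC in red left of CCR9- precursor in blue. In each of the 4 panels all CCR9+ pDC arrays lie above all precursor arrays.

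The rest of the pathway was read from 6 lists arranged by role. Of 100 such genes tested, 31 were called higher and 4 lower in CCR9+ pDCs (median log2 fold change 0.18, against 16.2% higher, 16.5% lower and a median of -0.02 over all genes). Median scaling left 18 higher and 4 lower. The shares over all genes given here belong to quantile normalization. With median scaling fewer of all probes were called higher and more lower, as given above.

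Of 21 genes tested for receptor folding and trafficking, 4 were higher and 1 lower, with a median of 0.02. The number called higher is near the background of 16.2% over all genes. Hsp90b1, the chaperone gp96 that folds Toll-like receptors, averaged 13.46 ± 0.04 in CCR9+ pDCs and 13.44 ± 0.07 in precursors (SD, n = 3 each). Its cofactor gene Cnpy3 was dim and differed by -0.29 (limma adjusted p = 0.519). Scarb2, which encodes the lysosomal membrane protein LIMP-2, was the list's largest difference, at 9.05, 8.86 and 9.12 in CCR9+ pDCs against 7.88, 7.90 and 7.93 in precursors (2.15-fold, adjusted p = 0.000495). Slc15a3, the close relative of Slc15a4, rose 1.52-fold (adjusted p = 0.0065) and Vti1b, a SNARE gene of late endosomes, 1.44-fold (0.0177). The Vti1b call was lost without CCR9+ pDC replicate 2 (0.0561) or precursor replicate 2 (0.0667) or 3 (0.0672), and with median scaling neither was called (0.192 for Slc15a3 and 0.298 for Vti1b). The second tested Vti1b probe differed by 0.31 on the log2 scale and was not called. Ap3b1, a subunit of the AP-3 adaptor that sorts TLR9 to the compartment of interferon signalling, fell by 0.60 on the log2 scale (adjusted p = 0.00692). The second tested Ap3b1 probe differed by -0.33 and was not called. The AP-3 subunit genes did not share a direction: Ap3d1 was called higher (log2 0.48, limma adjusted p = 0.0218) and Ap3m1 was not called (log2 -0.33).

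Genes for receptor cleavage and ligand processing had the highest median of the 6 lists, 0.80. Of the 11 tested, 7 were called higher and none lower, against 16.2% higher and 16.5% lower over all genes. Pld4, which encodes an endosomal exonuclease that degrades single-stranded ligands, had signals of 14.27, 13.91 and 14.15 in CCR9+ pDCs against 12.88, 12.81 and 12.92 in precursors (2.36-fold, limma adjusted p = 0.000538). Its relative Pld3 had 9.34, 9.52 and 8.81 in CCR9+ pDCs against 6.73, 6.87 and 6.83 in precursors (5.33-fold, 0.000196). Ctsl, a cathepsin gene, had 8.18, 8.52 and 7.88 in CCR9+ pDCs against 5.52, 5.07 and 5.46 in precursors. It was above background on 1 of 3 precursor arrays, so its fitted 7.17-fold difference rests partly on background. Cd14, a coreceptor gene of the endosomal receptors, rose 4.20-fold (adjusted p = 0.000425) and is itself among the macrophage markers. Without background correction the log2 fold changes shrank to 1.37 for Ctsl, 1.61 for Pld3 and 1.09 for Cd14, all still called. The summed pDC, macrophage and granulocyte marker signals given above were also higher in CCR9+ pDCs. The part of such cells in the signals of this list was not tested.

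Among 16 partners of the receptor complex and the TAK1 ubiquitin branch, 3 were higher, none lower, and the median was 0.05. The share called higher is near the background of 16.2% over all genes. Irak3, the kinase-dead family member that restrains the complex, had 8.41, 8.17 and 8.41 in CCR9+ pDCs against 6.91, 6.82 and 6.78 in precursors (2.80-fold, limma adjusted p = 0.000168). Peli2, a Pellino ubiquitin ligase gene that acts on IRAK proteins, had 8.58, 8.92 and 9.05 in CCR9+ pDCs against 6.55, 6.75 and 5.98 in precursors (5.35-fold, 0.000426). The third, the ubiquitin ligase gene Mib2, rose 1.27-fold (0.0480). Among the settings that ended that call were leaving out CCR9+ pDC replicate 1 (0.0951) or 2 (0.138), any 1 precursor array (0.128, 0.114 and 0.140) or both arrays numbered 3 (0.0777), no filter (0.0758) and median scaling (0.672). Without background correction the log2 fold changes were 1.46 for Peli2 and 0.89 for Irak3, against 2.42 and 1.49 with it, and both were called.

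In the interferon branch 6 of 18 genes were higher and 1 lower, against 16.2% and 16.5% over all genes, with a median of 0.07. Irf7, the factor that switches on interferon genes downstream of both receptors, had 11.69, 11.46 and 11.62 in CCR9+ pDCs against 9.97, 10.08 and 10.12 in precursors (2.89-fold, limma adjusted p = 0.000132). Pacsin1, an adaptor gene needed for the interferon response of pDCs to TLR7 and TLR9 ligands, had 13.93, 14.03 and 14.03 in CCR9+ pDCs against 12.90, 12.98 and 13.10 in precursors (2.00-fold, 0.000600), and 3 of its 4 tested probes were called higher. Ikbke, a kinase gene related to TBK1, rose 1.73-fold (log2 0.79, adjusted p = 0.00398), with a log2 fold change of 0.42 without background correction. Dock2, a Rac activator gene, rose 1.71-fold (0.0133), a call lost without precursor replicate 3 (0.0512) and with median scaling (0.136). Irf5 missed the threshold (log2 0.47, adjusted p = 0.0528) and passed under 10 of 19 alternatives. Irf8 was at 12.64, 12.67 and 12.98 in CCR9+ pDCs and 12.69, 12.85 and 13.07 in precursors, with overlapping groups (log2 -0.11, adjusted p = 0.643).

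In the NF-kappaB and MAP kinase branch 6 of 18 genes were higher and 1 lower, with a median of 0.16. The shares over all genes were 16.2% higher and 16.5% lower. Relb, the subunit gene of the noncanonical branch, had 7.69, 7.60 and 7.80 in CCR9+ pDCs against 5.72, 5.74 and 6.03 in precursors (3.64-fold, limma adjusted p = 0.000111). Its log2 fold change of 1.86 became 0.87 when background was left uncorrected and 0.89 on the processed table of the authors, and it was called in both. Map3k8, the kinase gene that links TLR signals to ERK, rose 2.07-fold (0.00438), though its second tested probe differed by -0.12. Nfkbie, an inhibitor gene of NF-kappaB, rose 1.87-fold (0.00523). Nfkbiz, an inducible nuclear member of the same inhibitor family, had 12.09, 12.76 and 13.17 in CCR9+ pDCs against 10.13, 11.13 and 11.72 in precursors (3.21-fold, 0.0309). Its spread within groups was wide, and its signals rose with the replicate number in both populations. The Nfkbiz call was lost without CCR9+ pDC replicate 2 (0.0867) or 3 (0.0636), without precursor replicate 1 (0.0631) or 2 (0.0804), with no filter (0.0542) and with an intensity trend (0.0786). With the replicate number as a block, its limma adjusted p was 0.00246.

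Of 16 inhibitors of the pathway, 5 were higher and 1 lower (16.2% and 16.5% over all genes), with a median of 0.27. Tnip1, a partner of the ubiquitin-editing enzyme A20, had 11.01, 10.94 and 11.11 in CCR9+ pDCs against 10.18, 10.23 and 10.29 in precursors (1.73-fold, limma adjusted p = 0.00150). Of the 3 tested Tnip1 probes 2 were called higher, and the lowest log2 fold change was 0.23. Tnfaip3, which encodes A20, had 9.19, 10.11 and 10.35 in CCR9+ pDCs against 7.75, 8.21 and 9.08 in precursors (2.89-fold, 0.0346). The Tnfaip3 call was lost without CCR9+ pDC replicate 2 (0.101) or 3 (0.0714), without precursor replicate 1 (0.103) or 2 (0.108), with no filter (0.0605) and with an intensity trend (0.0692). Its signals rose with the replicate number in both populations, and with that number as a block its limma adjusted p was 0.00439. Tnip2, another A20 partner, rose 1.70-fold (0.0177), and its call was lost without CCR9+ pDC replicate 2 (0.0592), precursor replicate 1 (0.0624) or 3 (0.0602), both arrays numbered 3 (0.0846) or with median scaling (0.0741). Sigirr, a receptor gene that dampens Toll-like and interleukin-1 receptor signals, fell by 0.69 on the log2 scale (0.0257). Among the settings that ended that call were leaving out CCR9+ pDC replicate 1 (0.0702), precursor replicate 2 (0.0742) or 3 (0.0850) or both arrays numbered 3 (0.0968), and the authors' processed values (log2 -0.24, 0.0554). Without background correction it was -0.27.

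**Figure D4:**
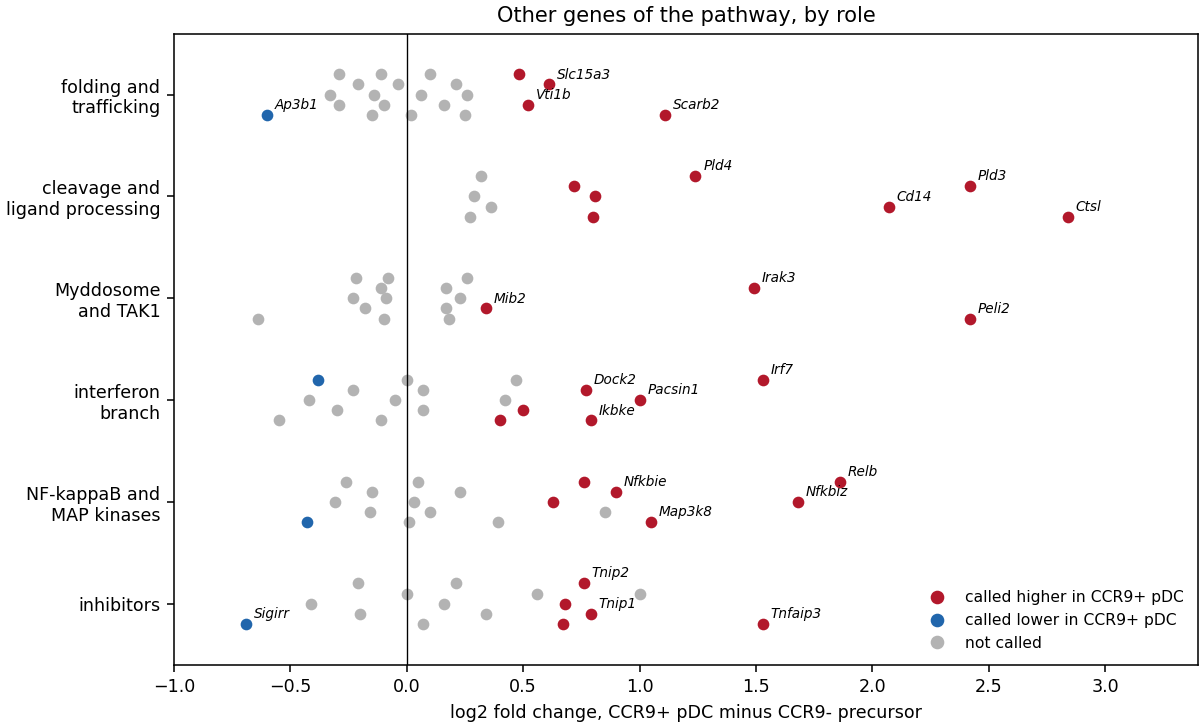
Log2 fold change (CCR9+ pDC minus CCR9- precursor) of the main probe of every tested gene in the 6 lists of other pathway genes, 1 point per gene, with a small vertical offset to separate points. Red points were called higher in CCR9+ pDCs, blue points lower, and grey points were not called. The list of cleavage and ligand processing lies farthest right, with a median of 0.80.

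**Figure D5:**
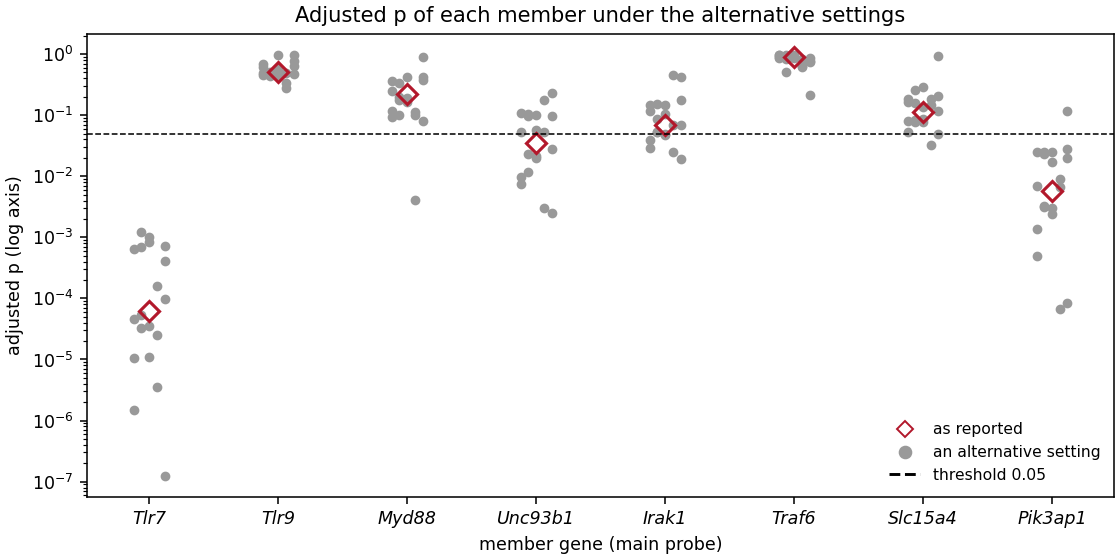
Adjusted p (log axis) of the main probe of each member as reported (red diamond) and under each alternative setting (grey points), with the threshold of 0.05 dashed. Tlr7 lies below the threshold under all 19 alternatives, Unc93b1 falls on both sides of it, and the Tlr9 and Traf6 points all lie above it.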

How the data were processed

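Total RNA of the 6 sorted samples was hybridised to single-colour Illumina arrays, labelled per the labels' protocols with a TargetAmp-Nano kit after mirVana isolation. The authors deposited a non-normalized table that pairs each intensity with its detection p-value, per the file headers, and a processed table of linear intensity whose normalization the labels and headers leave unstated. BeadStudio and lumi are named in the submitters' processing notes without versions. The columns of the processed table had medians of 153.3 to 154.0 and a rank correlation of at least 0.9997 with the non-normalized columns of their arrays. Each array detected between 15254 and 16905 probes (p-value under 0.05). The number of arrays limits the precision.

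Signals were background-corrected with limma 3.58.1 (normexp, parameters inferred from detection p-values, offset 16) under R 4.3.3, quantile normalized and put on the log2 scale; tables were handled with the data.table package (version 1.17.8). The 16857 probes detected on 3 or more of the 6 arrays were kept. Probe symbols came from the platform annotation, updated through Entrez identifiers with the RefSeq table of GRCm38.p6 (34885 probes with 1 symbol, 18 with several, 10378 with none). Group differences were fitted with limma's lmFit and eBayes over all kept probes without a term for replicate, with Benjamini-Hochberg adjustment over those probes. The fit was tested on simulated data. The members and lists were chosen with earlier results of these data known, so no list was tested as a set. Named genes were all members, the up to 4 called genes of each pathway list with the largest change, and Irf7, Irf5, Irf8, Hsp90b1 and Cnpy3 whatever their result; Tasl and Spp1, named by the same rule, were not matched to a probe here. In all, 19 alternatives were run.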

Additional observations from a re-analysis of the deposited data

How the results depend on the processing

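Tlr7 was called under all 19 alternatives, with log2 fold changes of 1.67 to 1.96, and 16 of the 26 named genes that were called kept their call under every alternative. The 8 member genes gave 3 calls as reported, 1 with median scaling, 5 when the prior was robust and followed intensity, 6 on the authors' processed values, and 2 to 3 when arrays were left out. The 100 pathway genes gave 35 calls as reported, 22 with median scaling, and 24 to 32 when arrays were left out. As reported, 29.3% of all probes were called, and the number of all probes called also changed with the setting. These counts alone are therefore not a result about the members or the pathway genes. The cause of the changes was not tested. Values near 0 changed sign: Tlr9 to -0.01 without precursor replicate 3 (-0.01 to 0.31 over the arrays left out), Traf6 to 0.03 with the authors' values and to 0.05 and 0.01 without CCR9+ pDC replicate 1 or precursor replicate 1, Cnpy3 to 0.12 without both arrays numbered 3 (-0.51 to 0.12), Hsp90b1 to -0.13 with median scaling and -0.02 without precursor replicate 1 (-0.02 to 0.06), and Irf8 to 0.07 with the authors' values. Fold sizes of dim genes depend on the background: without its correction the log2 fold changes of 8 of 26 called genes shrank by over 1.5 times, to 1.37 for Ctsl, 1.46 for Peli2, 1.61 for Pld3, 1.09 for Cd14, 0.89 for Irak3, 0.87 for Relb, 0.42 for Ikbke and -0.27 for Sigirr. With the authors' values 7 did, Pld3 being the exception, and with probe means Unc93b1 (0.23) and Map3k8 (0.47) did. Under the stricter filter Tlr9 and Cnpy3 were not tested. Deviations of same-numbered arrays correlated at 0.33, 0.02 and 0.23 for the numbers 1, 2 and 3, against -0.30 to 0.09 for unlike numbers. With 3 arrays per group these values do not decide whether the numbers pair the arrays. The fit with the number as a replicate block called 4671 probes against 4941, 2 members against 3 and 34 pathway genes against 35. CCR9+ pDC replicate 2 correlated better with precursor replicate 1 (0.09) than with its own number, while CCR9+ pDC replicates 1 and 3 correlated best with their own. With the block the calls of Unc93b1 (adjusted p = 0.0577), Mib2 (0.0660) and Sigirr (0.0535) were lost. Nfkbiz and Tnfaip3 were lowest on the arrays numbered 1 and highest on those numbered 3 in both populations, and with the block the adjusted p was 0.00246 for Nfkbiz and 0.00439 for Tnfaip3. A block for slide or array position was not run because the headers give neither.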
